A study of Callithrix jacchus with 4 samples.

Results

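The comparison described here is the difference in gene expression between 6 h and 2 h after a single dose of the neurotoxin MPTP in the substantia nigra pars compacta of the common marmoset (Callithrix jacchus). It rests on 2 of the 4 arrays of the series and covers all 18014 genes that could be named from them. The 6 h sample came from 1 animal and the 2 h sample it is set against from another, with 1 array per time. Both animals were 3-year-old males given 2.5 mg/kg MPTP intravenously under pentobarbital anaesthesia. Each array set the MPTP animal (Cy5) against 1 vehicle animal of the same sex and age (Cy3), with no dye swap, and the other 2 arrays came from animals killed at 1 day and 14 days. A unilateral strip of the nucleus was cut by laser from toluidine blue stained sections and collected from 2 slides. Its RNA was amplified in 2 rounds before it was read by probes designed for human transcripts. The strip was chosen by position and stain, and can hold neurons, glia and vessels together.

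The substantia nigra pars compacta is the midbrain nucleus whose dopamine neurons project to the striatum and control movement. MPTP crosses into the brain and is oxidised in glia to MPP+, which enters dopamine neurons through the dopamine transporter and inhibits mitochondrial complex I, the first enzyme of the respiratory chain. The hours after a toxic dose are the period in which immediate early genes, heat shock genes, stress hormone targets and cytokines are known to respond in brain tissue, and a difference between 6 h and 2 h asks which transcripts stood apart within that period.

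The deposited table held 1 log ratio per array feature. It was read as log10 of Cy5 over Cy3, converted to log2 and centred on the median of all features, so a positive 6 h or 2 h value means more transcript in the MPTP animal than in the vehicle animal. Scale and direction are inferred from the form of the table and from the labelled dyes. Had the ratio been formed the other way, every sign given here would turn. The difference between times is 6 h minus 2 h, so the vehicle sample cancels in it and a positive difference means higher at 6 h. With 1 animal per time the spread between animals is unknown and no p-value is given, and a gene is called higher or lower when it passes 2-fold, a log2 difference of 1. The SD given with a gene is that between its features on the same 2 arrays, and so measures technical spread alone. A gene's difference is the median of its features' differences, which for genes with 3 or more features need not equal the difference of its 2 medians. The table gives ratios without spot intensities, so neither the level of a transcript nor whether a marker was expressed can be read. In tissue of this kind, fewer cells of a type cannot be told apart from less RNA per cell. The 2 h array was the wider one, with a median absolute deviation over features of 0.283 at 6 h and 0.391 at 2 h on the log2 scale, and differences were therefore also computed with both arrays scaled to 1 spread.

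Features of the same gene agreed poorly, which bears on every gene below that has a single feature. Of the 18014 genes, 10603 (58.9%) had 1 feature and 7411 had 2 or more. Among the 5162 genes with exactly 2 features, the difference between times in one feature hardly followed that in the other, with Pearson's r at 0.034 and Spearman's rho at 0.059 across genes. The features had the same sign for 53.5% of these genes. Where the first feature passed 2-fold, in 560 genes, the second passed it in the same direction in 8.75%. Ratios to vehicle within one array agreed somewhat better, with rho between the features at 0.18 at 6 h and 0.14 at 2 h. The median SD between the features of a gene was 0.40. The text therefore gives the number of features with most genes, and describes first the genes in which all features agreed.

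**Figure D1:**
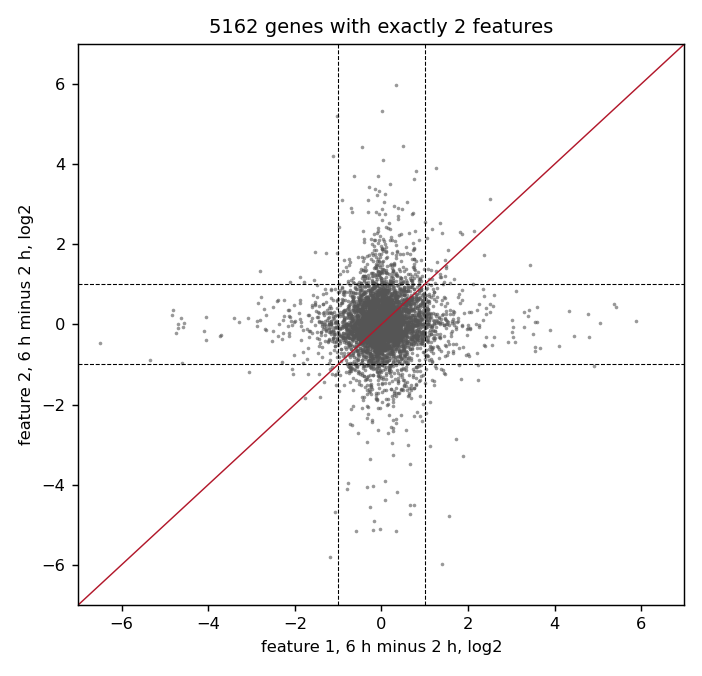
Each point is 1 of the 5162 genes with exactly 2 array features, with the log2 difference between 6 h and 2 h in one feature on each axis. Dashed lines mark 2-fold and the red line equality. The points form a cross along the axes instead of following the red line (r = 0.034).

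The 6 h array passed the 2 h array by 2-fold or more in 867 genes (4.81%) and lay below it by as much in 714 (3.96%). The quartiles of all differences were −0.28 and 0.31, with a median of 0.0069. Nearest the threshold, TTC9C (1.0005) and MAN1B1 (−1.0021) lay just inside, and HEYL (−0.99995) and CCK (0.9995), the gene of the neuropeptide cholecystokinin, just outside. With both arrays scaled to 1 median absolute deviation, 880 genes (4.89%) were higher and 716 (3.97%) lower, and the 2 settings shared 715 higher and 582 lower genes. Genes with a single feature passed 2-fold more often, at 6.14% higher and 5.37% lower, than genes with 2 or more features, at 2.91% and 1.96%.

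More of the genes that passed 2-fold between the times were far from vehicle on the 2 h array than on the 6 h array. The 867 higher genes had a median ratio of 0.448 at 6 h and −0.998 at 2 h. Of them, 218 were at least 2-fold above vehicle at 6 h, 430 were at least 2-fold below vehicle at 2 h, and 15 were both. The 714 lower genes had a median ratio of −0.38 at 6 h and 1.04 at 2 h, with 185 at least 2-fold below vehicle at 6 h, 372 at least 2-fold above it at 2 h, and 17 both. A further 234 higher and 174 lower genes stayed within 2-fold of vehicle on both arrays and passed only by the difference. These genes were chosen by this difference, so the counts are a description. The same imbalance was present over all genes, with 607 at least 2-fold above and 700 below vehicle at 6 h, against 985 above and 1301 below at 2 h.

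**Figure D2:**
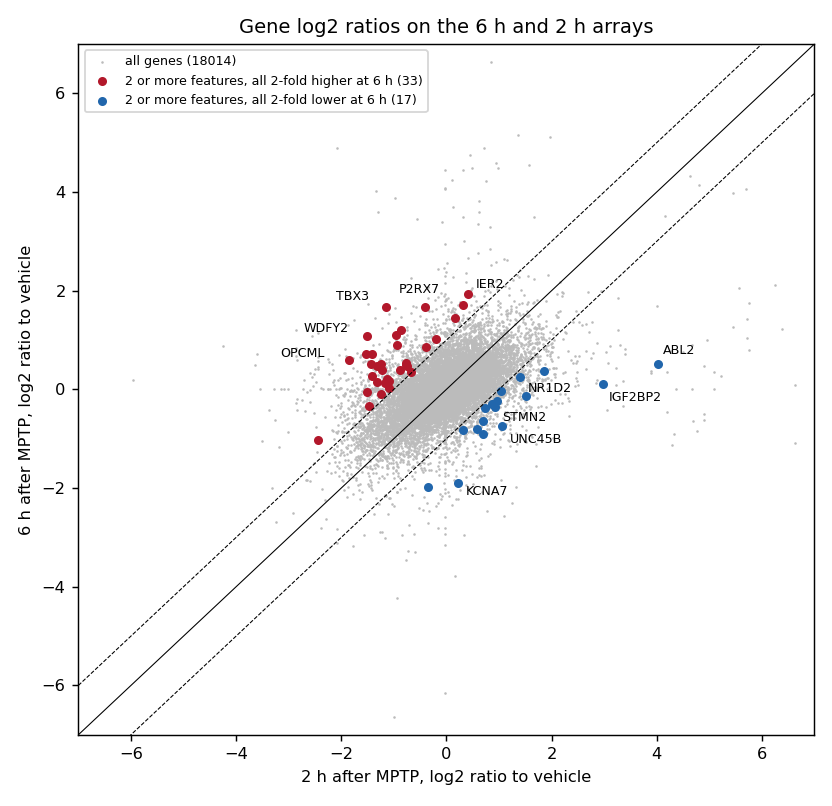
Each grey point is 1 of 18014 genes, with its log2 ratio to vehicle at 6 h on the vertical axis and at 2 h on the horizontal axis. The solid line is equality and dashed lines mark 2-fold. Coloured points are the 33 genes (red) and 17 genes (blue) with 2 or more features that all passed 2-fold.

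All features passed 2-fold upwards at 6 h in 33 of the 7411 genes with several features (0.445%), and downwards in 17 (0.229%). These genes were chosen because their features passed in the same direction, so that agreement is no evidence of its own. TBX3, a T-box transcription factor that represses differentiation genes, had the largest difference among the higher ones, at 2.82 ± 0.45 (SD, 2 features). Its features stood at −0.09 and 3.42 at 6 h, against −2.59 and 0.28 at 2 h, so they disagreed on the level and agreed on the difference. OPCML, a cell adhesion molecule of the neuronal surface, stood at 0.60 at 6 h and −1.86 at 2 h, with a difference of 2.46 ± 1.39 (2 features). WDFY2, an endosomal protein that binds the kinase AKT, stood at 1.08 at 6 h and −1.51 at 2 h (difference 2.59 ± 1.87, 2 features). Genes with provisional names, such as clone, open reading frame or antisense names, were left out of the next comparison. Among the rest with 2 or more features, only TBX3 and WDFY2 had medians 2-fold above vehicle at 6 h and 2-fold below it at 2 h. No gene in that set went the opposite way.

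Other higher genes with agreeing features stood above vehicle at 6 h. P2RX7, the ATP-gated channel whose opening triggers interleukin-1β release from microglia, stood at 1.66 at 6 h and −0.40 at 2 h, a difference of 2.06 ± 0.28 (2 features). ADAMTS4, a protease that cuts the proteoglycans of the brain matrix, stood at 1.20 at 6 h and −0.86 at 2 h, a difference of 2.06 ± 0.45 (2 features). OTUD7B, a deubiquitinase that restrains NF-κB signalling, stood at 1.10 at 6 h and −0.97 at 2 h, a difference of 2.07 ± 0.34 (2 features). The medians of all 3 lay at least 2-fold above vehicle at 6 h, and lay below vehicle at 2 h. TEC, a cytoplasmic tyrosine kinase of blood cell signalling, had a difference of 2.24 ± 0.13 (2 features). IER2, an immediate early gene, stood far above vehicle at 6 h, with features at 2.18 and 1.71, against 0.71 and 0.10 at 2 h (difference 1.54 ± 0.10).

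RPS14, RPLP1 and EIF3A, of translation, and NDUFA2, of complex I, were at least 2-fold below vehicle at 2 h, with small feature SDs of the difference. That their features agreed in direction follows from the choice. RPS14, a protein of the small ribosomal subunit, had 4 features at 0.73, 0.69, 0.66 and 1.77 at 6 h, against −1.37, −1.44, −1.50 and −0.53 at 2 h. Its difference of 2.15 ± 0.09 was more than 4-fold, and no 6 h feature overlapped a 2 h feature. RPLP1, an acidic protein of the ribosomal stalk, stood at 0.15 at 6 h and −1.33 at 2 h (1.48 ± 0.02, 2 features). EIF3A, the largest subunit of a translation initiation factor, differed by 1.14 ± 0.03 (2 features), and NDUFA2, an accessory subunit of complex I, by 1.11 ± 0.02 (2 features). Both fell just short of 2-fold with scaled arrays, at 0.95 and 0.96. At 6 h these 4 genes lay between −0.09 and 0.71. They do not stand for their groups. The list of translation factors had a median of −0.03 over 62 genes, with 30 above 0 and 32 below. Of them 4 were at least 2-fold higher (6.45%, against 4.81% of all genes) and 2 lower (3.23%, against 3.96%). Its member EIF5B, with 10 features, differed by −1.04. Other genes had wider feature SDs. CNTLN and CNTRL, both proteins of the centrosome, differed by 1.95 ± 0.83 and 1.85 ± 0.63, and WASHC2A, of a complex that sorts endosomal cargo, by 1.77 ± 0.85, each with 2 features. For CNTLN, 1 feature was listed at exactly 0 at 6 h, where no ratio may have been measured. CCT6P1, a pseudogene of a chaperonin subunit whose signal may include that of its parent gene, differed by 1.78 ± 1.09 (2 features).

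Of the 17 lower genes, 7 lay at least 2-fold above vehicle at 2 h and 2 at least 2-fold below it at 6 h. STMN2, a microtubule regulator of growing axons, stood at −0.30 at 6 h and 0.87 at 2 h, with differences of −1.26 and −1.08 in its 2 features. NR1D2, the clock repressor REV-ERBβ, stood at 0.25 at 6 h and 1.40 at 2 h (−1.15 ± 0.05, 2 features, and −0.91 scaled). UNC45B, a chaperone of muscle myosin, stood at −0.74 at 6 h and 1.07 at 2 h (−1.80 ± 0.05, 2 features). All 3 lay above vehicle at 2 h, and STMN2 and UNC45B lay below it at 6 h. KCNA7, a voltage-gated potassium channel, stood at −1.89 at 6 h and 0.23 at 2 h (−2.12 ± 1.32), and GALM, which interconverts forms of galactose, at −0.13 at 6 h and 1.52 at 2 h (−1.65 ± 0.57), each with 2 features. The remaining named ones were ENOX2 (−1.60 ± 0.67), HSPB9, a small heat shock protein of the testis (−1.48 ± 0.33), the F-box protein FBXW2 (−1.34 ± 0.15), TTC7A (−1.28 ± 0.32) and MRAP, a chaperone of the corticotropin receptor (−1.19 ± 0.05), each with 2 features. The kinase gene ABL2 (−3.51 ± 3.27) and the RNA-binding protein gene IGF2BP2 (−2.87 ± 2.56) had the lowest medians. Each of these owed its size to 1 feature, since the other ABL2 feature differed by −1.20 and the other IGF2BP2 feature by −1.06. The larger ABL2 feature lay at the limit of the deposited scale at 2 h (6.62), so its difference and the SD are bounds set by the table.

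**Figure D3:**
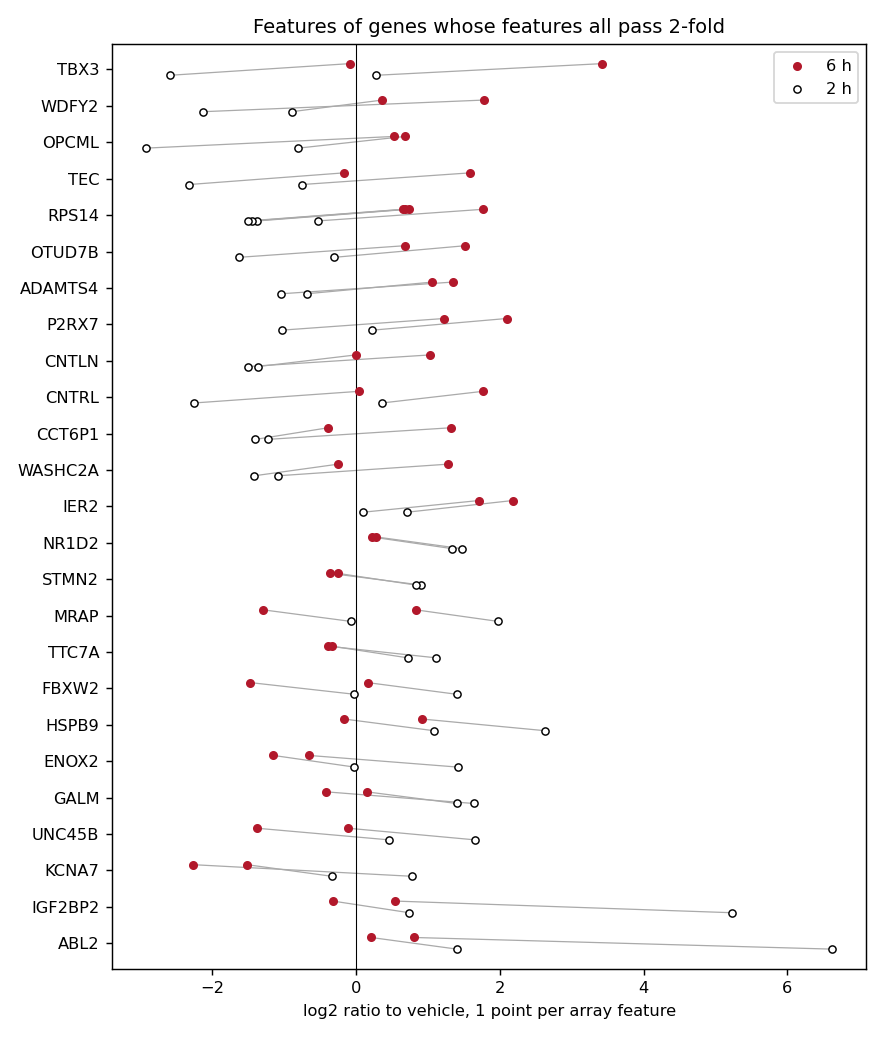
Rows are the 12 highest and 12 lowest genes whose 2 or more features all passed 2-fold, and IER2, ordered by the difference with the highest at the top. Filled points are single array features at 6 h and open points the same features at 2 h, as log2 ratios to vehicle, joined by a line. The lines of RPS14 and NR1D2 run nearly parallel, while ABL2 and IGF2BP2 each have 1 feature far to the right at 2 h.

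Genes spotted many times gave a second view of precision. Of 71 genes with 10 or more features, 36 lay above 0 and 35 below, between −1.04 and 0.78, with an SD across genes of 0.36. In 13 of them every feature lay above 0 and in 5 every feature lay below. EIF5B, a factor that joins the ribosomal subunits, was the only one past 2-fold, at −0.84 at 6 h and 0.02 at 2 h, with a difference of −1.04 ± 0.45 (10 features between −1.57 and −0.23). RPAP3, a cofactor of the chaperone Hsp90, had 10 features between 0.51 and 0.74, at −1.65 at 6 h and −2.27 at 2 h. It was chosen after its values were seen, and its difference of 0.61 ± 0.07 was −0.03 with the arrays scaled to 1 spread, although its features agreed closely.

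The genes were also grouped in 47 lists of pathways, complexes and cell type markers. Their medians ran from −0.29 to 0.51, with 25 above 0 and 22 below, against a median of 0.0069 over all genes, and 7 medians changed sign when the arrays were scaled to 1 spread. The 14 lists described most fully were picked after all medians had been seen. They include the highest and lowest medians, so their order among lists is no evidence of its own.

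**Figure D4:**
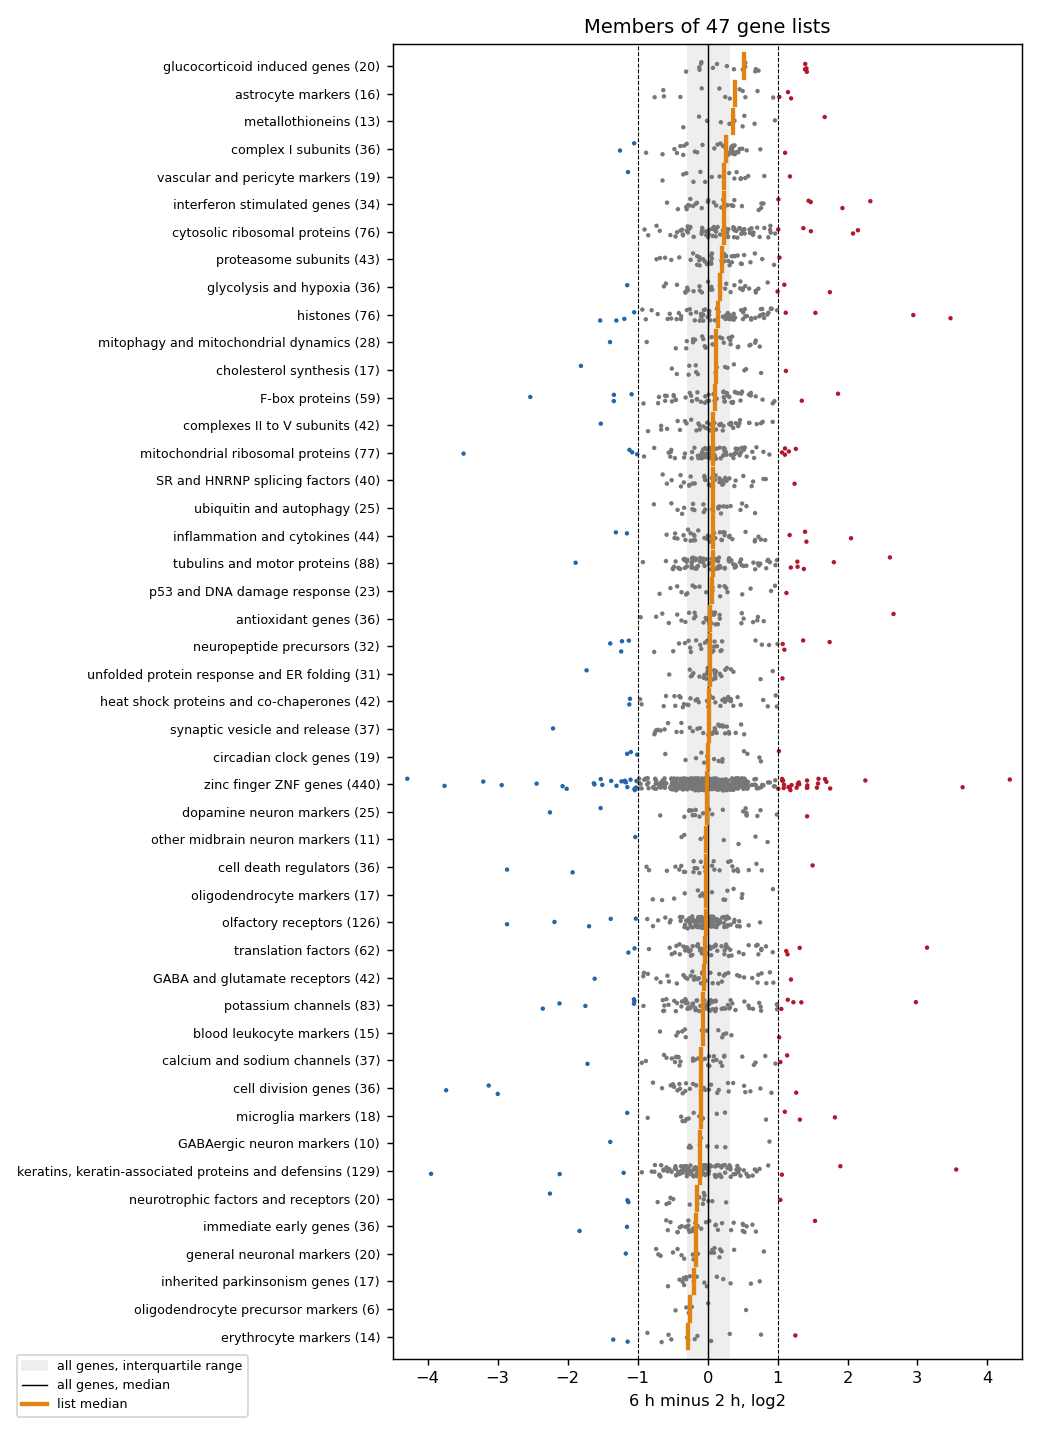
Each row is a gene list with the number of measured members, ordered by its median, and each point is 1 member's log2 difference between 6 h and 2 h. Red and blue points passed 2-fold, the orange bar is the list median, the grey band the interquartile range of all genes. Glucocorticoid induced genes are highest (0.51) and erythrocyte markers lowest (−0.29). The medians of immediate early genes, heat shock proteins, dopamine neuron markers, circadian clock genes, antioxidant genes, neuropeptide precursors and cell death regulators change sign when the arrays are scaled.

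Glucocorticoid induced genes, the targets of the stress hormone cortisol, had the highest median of the lists, 0.51 over 20 genes and 0.55 with scaled arrays. Of the 20, 15 lay above 0 (50.6% of all genes did), 4 were at least 2-fold higher (20%, against 4.81% of all genes) and none lower. CEBPD, which drives acute phase genes, stood at 1.90 at 6 h and 0.49 at 2 h (1 feature). KLF9, a hormone-induced repressor, stood at −0.53 at 6 h and −1.95 at 2 h (1 feature), and NFKBIA, the inhibitor of NF-κB, at 0.77 at 6 h and −0.62 at 2 h (1 feature). The differences of these 3 were near each other, at 1.41, 1.42 and 1.39, but only CEBPD was 2-fold above vehicle at 6 h. TAT, a liver enzyme and classic cortisol target, had a difference of 1.40 from 3 features that ran from −0.29 to 1.43, and 0.58 with scaled arrays. The widely used markers of cortisol action had medians within 2-fold, but not all were well measured. FKBP5 differed by 0.13 ± 1.20 from features that pulled apart, at −0.71 and 0.98. PER1 differed by −0.09 ± 0.02, and DDIT4 by −0.12 ± 0.62 from features at −0.55 and 0.32. Each of these markers had 2 features. Of the 10 members with 2 or more features, all features were above 0 in 3 and below 0 in 2, against 23.6% and 21.0% of all such genes.

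Metallothioneins buffer zinc and copper in the cell and are induced by metals and by cortisol. Their list had a median of 0.36 over 13 genes, or 0.48 with scaled arrays. The median was 0.18 after that of each gene's neighbours in marmoset genome order was subtracted. The members MTF1 (0.19) and SLC30A1 (−0.35) are not themselves metallothioneins, and are named here for that reason. The median ratio of the list was 0.44 at 6 h and −0.01 at 2 h. Of the 13, 10 lay above 0 (50.6% of all genes did), and in 6 of the 8 with 2 or more features all features did (23.6% of all such genes). MT1M was the only member past 2-fold (7.69%, against 4.81% of all genes), at −0.05 at 6 h and −1.72 at 2 h (1 feature). MT1X, at 0.54 at 6 h and −0.43 at 2 h, and MT2A, at 0.75 at 6 h and 0.22 at 2 h, had differences of 0.96 and 0.53 and were chosen after their values were seen. The metallothionein genes are near-identical, and human probes may read several of them at once, so they are not separate measurements. MT2A is also a member of the glucocorticoid list.

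Interferon stimulated genes, which encode antiviral proteins, had a median of 0.23 over 34 genes (0.21 with scaled arrays), with 5 at least 2-fold higher (14.7%, against 4.81% of all genes) and none lower. MX1, a GTPase that blocks viral replication, stood at 1.37 at 6 h and −0.95 at 2 h, a difference of 2.33. IFIT1, which binds viral RNA, stood at 0.79 at 6 h and −1.14 at 2 h, a difference of 1.93, and the ubiquitin-like ISG15 at 1.70 at 6 h and 0.23 at 2 h, a difference of 1.47. Each of these 3 had 1 feature, and all 3 were above vehicle at 6 h. RSAD2, or viperin, had features that pulled apart, at −0.67 and 3.55 (median 1.44), as did those of the deubiquitinase USP18, at 0.25 and 1.77 (median 1.01). Of the 12 members with 2 or more features, all features lay above 0 in 7 and below 0 in 1, against 23.6% and 21.0% of all such genes. Members went both ways, with 23 above 0 and 11 below, and IFI27, with 11 features, had a difference of −0.26 (named after its value was seen).

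Inflammation genes had a list median near that of all genes, 0.07 over 44 genes, with 4 at least 2-fold higher (9.09%, against 4.81% of all genes) and 2 lower (4.55%, against 3.96%). CCL2, a chemokine that draws monocytes, stood at 1.22 at 6 h and 0.05 at 2 h, a difference of 1.17 (1 feature). CXCL8, the neutrophil chemokine, had a difference of 2.05, but its single feature was listed at exactly 0 at 6 h, where no ratio may have been measured, and stood at −2.05 at 2 h. IL6 differed by 0.68, IL1B by 0.54 and TNF by −0.47 ± 0.27 (2 features), all short of 2-fold. CEBPD and NFKBIA, already described, were the other 2 members past 2-fold upwards. On the lower side were TNFAIP6, a hyaluronan-binding protein, at −0.04 at 6 h and 1.27 at 2 h, and SELE, the endothelial adhesion molecule E-selectin, at 0.02 at 6 h and 1.17 at 2 h. Both had 1 feature, near vehicle at 6 h and above it at 2 h, and SELE fell short of 2-fold with scaled arrays (−0.99).

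Immediate early genes, which are switched on within minutes of neuronal activity or stress, had a median ratio of 0.26 at 6 h and 0.31 at 2 h over 36 genes, and single members lay on either side of vehicle. The median difference of −0.16 became 0.003 with scaled arrays, and 1 gene was at least 2-fold higher (2.78%, against 4.81% of all genes) and 2 lower (5.56%, against 3.96%). NR4A1, an orphan nuclear receptor, stood at 1.36 at 6 h and 2.51 at 2 h, a difference of −1.15 (−0.54 scaled). FOS stood at 1.32 at 6 h and 1.50 at 2 h, a difference of −0.18 that was 0.28 with scaled arrays. JUN, which pairs with FOS to form AP-1, stood below vehicle, at −1.03 at 6 h and −1.37 at 2 h, a difference of 0.34 that was −0.05 with scaled arrays. EGR1 stood at 1.07 at 6 h and 0.54 at 2 h. CCN2, a matricellular growth factor, had the lowest difference, at −0.64 at 6 h and 1.19 at 2 h. IER2, with agreeing features, was the only member past 2-fold upwards, while NR4A1, FOS, JUN, EGR1 and CCN2 each had 1 feature.

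Heat shock proteins and their co-chaperones lay below vehicle as a list on both arrays, with medians of −0.32 at 6 h and −0.45 at 2 h over 42 genes. The difference had a median of 0.02, or −0.10 with scaled arrays, with none at least 2-fold higher and 2 lower (4.76%, against 3.96% of all genes). HSPB9, described above among the lower genes, is not a member of this list. HSP90AB1, the constitutive Hsp90, had 3 features that differed by −1.27, −1.12 and −0.27, with a median ratio of −1.32 at 6 h and −0.05 at 2 h. HSF1, the factor that drives heat shock transcription, stood at 0.67 at 6 h and 1.78 at 2 h (1 feature), a difference of −1.11 that was −0.73 with scaled arrays, short of 2-fold. HSPA8, the constitutive Hsp70, differed by −0.35 ± 0.10, with all 5 features below 0, from −0.53 to −0.24. The stress-induced HSPA1A, whose near-identical copy HSPA1B its probes may also read, differed by 0.18 ± 0.58 (3 features) and by −0.02 with scaled arrays. HMOX1, the enzyme of haem breakdown induced by oxidative stress, differed by 0.09 (1 feature) and by −0.13 scaled. Members of the list went both ways, with 23 above 0 and 19 below.

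Circadian clock genes spread in both directions around a median of 0.00 over 19 genes, with 1 at least 2-fold higher (5.26%, against 4.81% of all genes) and 3 lower (15.8%, against 3.96%). With scaled arrays none was higher and 2 were lower, and NR1D2 (−0.91) and BHLHE41 (0.78) fell short of 2-fold. Besides NR1D2, the repressor CRY1 differed by −1.10 ± 0.39 (2 features), at −0.22 at 6 h and 0.87 at 2 h, and the nuclear receptor RORB by −1.01 ± 0.48 (2 features), at −0.47 at 6 h and 0.54 at 2 h. BHLHE41, a clock repressor, was at least 2-fold higher, at −0.31 at 6 h and −1.33 at 2 h (1 feature). Of the 13 members with 2 or more features, all features lay below 0 in 6 and above 0 in 2, against 21.0% and 23.6% of all such genes. The hour of day at which each animal was killed is not given in the sources used here.

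Subunits of complex I, the target of MPP+, had a median of 0.27 over 36 genes, which was 0.14 with scaled arrays. Of the 36, 23 lay above 0 (63.9%, against 50.6% of all genes). In 8 of the 14 with 2 or more features all features did, while in 1 all lay below (23.6% and 21.0% of all such genes). Most of the differences were small. NDUFA2 alone was at least 2-fold higher (2.78%, against 4.81% of all genes). NDUFB4, at −0.35 at 6 h and 0.91 at 2 h, and the core subunit NDUFS8, at 1.36 at 6 h and 2.41 at 2 h, were lower (1 feature each). The lower share was 5.56%, against 3.96% of all genes. With scaled arrays NDUFB4 alone passed, at −1.19, while NDUFS8 lay at −0.46 and NDUFA2 at 0.96. Subunits of complexes II to V had a median of 0.08 over 42 genes, with ATP5F1B, the catalytic subunit of ATP synthase, at −0.01 at 6 h and 1.52 at 2 h. ATP5F1B (1 feature) was the only member past 2-fold (2.38% lower, against 3.96% of all genes).

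Cytosolic ribosomal proteins stood further below vehicle at 2 h, with a median ratio of −0.09 at 6 h and −0.42 at 2 h over 76 genes. The difference had a median of 0.23, or 0.18 with scaled arrays, with 5 genes at least 2-fold higher (6.58%, near the 4.81% of all genes) and none lower. In 22 of the 55 with 2 or more features, all features lay above 0, and in 7 all lay below, against 23.6% and 21.0% of all such genes. RPS14, RPLP1 and RPL10A (1.01 ± 0.17, 2 features, and 0.80 scaled) were 3 of the 5. The others, RPS4Y1 and RPS4Y2, are near-copies of RPS4X, which differed by 0.14. Ribosomal proteins have many processed pseudogenes in the genome, so that probes may read more than the named gene. The 43 proteasome subunits had a median of 0.20 (0.06 scaled) and were led by PSMA6 at 1.03 ± 0.22 (2 features). PSMA6 was the only member past 2-fold (2.33%, against 4.81% of all genes), and lay at 0.79 with scaled arrays.

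Genes of glycolysis and hypoxia had a median of 0.18 over 36 genes, with 3 at least 2-fold higher (8.33%, against 4.81% of all genes) and 1 lower (2.78%, against 3.96%). The median was 0.049 over the 20 members with 2 or more features. EGLN3, an oxygen-sensing hydroxylase induced by hypoxia, stood at 1.23 at 6 h and −0.52 at 2 h, a difference of 1.75. ADM, the vasodilator adrenomedullin, stood at 0.63 at 6 h and −0.46 at 2 h, a difference of 1.10. PFKP, at 0.60 at 6 h and −0.40 at 2 h, lay barely past 2-fold with a difference of 1.0005. GAPDH, a glycolytic enzyme used as a loading control in many assays, stood at 0.78 at 6 h and 1.93 at 2 h, a difference of −1.15 (−0.73 scaled). EGLN3, ADM, PFKP and GAPDH had 1 feature each. ACTB, the other common loading control, differed by −0.27 ± 0.21 (4 features). The mitophagy receptor gene BNIP3L stood at −1.34 at 6 h and −2.03 at 2 h, with a difference of 0.69 ± 0.23 (2 features) that was 0.15 with scaled arrays.

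Markers of dopamine neurons went both ways between the times. Their median difference was −0.01 over 25 genes, and 0.02 with scaled arrays, with 12 above 0 (48%, against 50.6% of all genes) and 13 below. TH, the tyrosine hydroxylase that limits dopamine synthesis, had features at 0.20 and 1.07 at 6 h, against 0.53 and 1.27 at 2 h, so both were slightly lower (−0.26 ± 0.09, and −0.02 scaled). DDC, which makes dopamine from L-DOPA, was the only member at least 2-fold higher, at 0.67 at 6 h and −0.76 at 2 h (1 feature). That is 4% of the list, against 4.81% of all genes. KCNJ6, the GIRK2 channel of the ventral tier, lay just short of 2-fold at 0.99, with 0.80 at 6 h and −0.19 at 2 h (1 feature). ALDH1A1, another ventral-tier marker, differed by 0.71, and the vesicular transporter SLC18A2 by 0.22, each with 1 feature. The transcription factor LMX1B was lower, at 0.23 at 6 h and 1.76 at 2 h (1 feature), as was GFRA1, the GDNF receptor, at −2.25 ± 3.25 from 2 features at −4.55 and 0.05. Together they are 8% of the list, against 3.96% of all genes. The dopamine transporter SLC6A3 had 1 feature listed at exactly 0 on both arrays, so no ratio can be read.

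General neuronal markers had a median of −0.17 over 20 genes (−0.08 scaled), with 9 above 0 (45%, against 50.6% of all genes) and 11 below. In 6 of the 10 with 2 or more features all features lay below 0, and in 1 all lay above, against 21.0% and 23.6% of all such genes. STMN2 was the only one past 2-fold (5% lower, against 3.96% of all genes). SYN1, a protein of synaptic vesicles, at 0.56 at 6 h and 1.29 at 2 h (−0.74), and NEFH, the heavy neurofilament, at 0.32 at 6 h and −0.49 at 2 h (0.80), were among the others and were chosen after their values were seen. The GABAergic marker SST, somatostatin, stood at −1.05 at 6 h and 0.34 at 2 h (1 feature), in a list of 10 genes with a median of −0.10. SST was the only member of that list past 2-fold (10% lower, against 3.96% of all genes). Genes of inherited parkinsonism had a median of −0.20 over 17 genes with none past 2-fold. The lowest of them was SYNJ1 (−0.57) and the highest PARK7, which encodes DJ-1 (0.75), named after their values were seen.

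Neurotrophic factors and their receptors had a median of −0.15 over 20 genes (−0.22 scaled), with 16 of the 20 below 0 and 4 above (20%, against 50.6% of all genes). Of them 1 was at least 2-fold higher (5%, against 4.81% of all genes) and 3 lower (15%, against 3.96%). CDNF, a dopamine neurotrophic factor, stood at −0.36 at 6 h and 0.78 at 2 h. NRTN, neurturin, was listed at exactly 0 at 6 h and stood at 1.15 at 2 h (difference −0.99 scaled). NTF4, neurotrophin-4, was the only one at least 2-fold higher, at 0.34 at 6 h and −0.70 at 2 h. These 3 had 1 feature each. GFRA1, already described with the dopamine neuron markers, was the other lower member. In none of the 10 members with 2 or more features did all features lie above 0, and in 1 all lay below, against 23.6% and 21.0% of all such genes.

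Astrocyte markers lay further below vehicle at 2 h, with a median ratio of −0.16 at 6 h and −0.40 at 2 h over 16 genes. The median difference was 0.39 (0.32 scaled), with 3 genes at least 2-fold higher (18.8%, against 4.81% of all genes) and none lower. S100B, a calcium-binding protein, stood at −0.41 at 6 h and −1.60 at 2 h (1 feature), AGT, angiotensinogen, at −0.22 at 6 h and −1.37 at 2 h (1 feature), and the filament protein VIM at −0.49 at 6 h and −1.51 at 2 h (2 features). With scaled arrays all 3 fell short of 2-fold, at 0.89, 0.92 and 0.72. GFAP, the filament of reactive astrocytes, differed by 0.17 ± 0.21 and by 0.02 with scaled arrays, and 1 of its 2 features was listed at 0 on both arrays. SLC1A2, the main glutamate transporter of astrocytes, went the other way at −0.76 (3 features, named after its value was seen). The part of this marker list in the other differences was not tested.

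Other cell types gave smaller or mixed values. Microglia markers had a median of −0.10 over 18 genes, with the transcription factor SPI1 (1.32), the chemokine receptor CX3CR1 (1.10) and the protease CTSS (1.82 ± 2.51, 2 features at 0.05 and 3.59) at least 2-fold higher and the adaptor TYROBP (−1.15, and −0.71 scaled) lower. That is 16.7% higher and 5.56% lower, against 4.81% and 3.96% of all genes. Most members went the other way, with 6 above 0 (33.3%, against 50.6% of all genes) and 12 below, and the scaled median was −0.18. SPI1, CX3CR1 and TYROBP had 1 feature each. Over the 5 members with 2 or more features the median was 0.13. AIF1, another microglial marker, was not analysed here. Oligodendrocyte markers had a median of −0.03 over 17 genes and none past 2-fold, and MBP, a main protein of myelin, differed by −0.65 ± 1.20 (2 features at −1.50 and 0.20). Vascular markers had a median of 0.23 over 19 genes, with ACTA2, smooth muscle actin, higher at 1.18 and ENG, endoglin, lower at −1.14 (−0.93 scaled). Each had 1 feature. The shares were 5.26% in either direction, against 4.81% higher and 3.96% lower of all genes. The markers of glia and vessels did not move as 1 group.

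Erythrocyte markers had the lowest median of the lists, −0.29 over 14 genes (−0.17 scaled), and lay above vehicle at both times with median ratios of 0.33 at 6 h and 0.60 at 2 h. HBA1, an alpha-globin, stood at 1.31 at 6 h and 2.66 at 2 h, a difference of −1.35 (−0.73 scaled, 1 feature). HBD, the minor adult beta-like globin, differed by −1.14 ± 0.77, while the fetal globin HBG1 went the other way with agreeing features (1.25 ± 0.15, 2 features each). The shares past 2-fold were 7.14% higher and 14.3% lower, against 4.81% and 3.96% of all genes. Some globin genes are near-copies of each other, so the globin members of this list are not all separate measurements. The members SLC4A1 (−0.56), ALAS2 (−0.52), CA1 (−0.29), AHSP (−0.15), EPB42 (0.05) and HEMGN (0.76) are not globins, and are named here for that reason. Blood leukocyte markers had a median of −0.07 over 15 genes. The part of these markers in the other differences was not tested.

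Large families that belong to no pathway above were counted in the same way. Of 126 olfactory receptors, none was at least 2-fold higher and 5 (3.97%) were lower, with a median of −0.03. Of 129 keratins, keratin-associated proteins and defensins, 3 were higher and 3 lower (2.33% each), with a median of −0.11. In 440 zinc finger genes, 27 were higher (6.14%) and 23 lower (5.23%), with a median of −0.01. Over all genes the shares were 4.81% higher and 3.96% lower, so the first 2 families lay at or below them and the zinc finger genes above. The 33 lists not set out in full had medians from −0.25 to 0.23, 17 above 0 and 16 below.

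The 5 highest and 5 lowest differences all came from genes with 1 feature. TRIM54, a ubiquitin ligase of striated muscle, had the highest, 6.97, at 4.88 at 6 h and −2.08 at 2 h. S100A3 (6.16), IZUMO1 (5.80), PDCD6P1 (5.36) and LCA5L (5.12) followed. The lowest was IFNA6, an interferon alpha gene, at −7.71, with −1.08 at 6 h and 6.62 at 2 h. It was followed by SLURP1 (−6.53), TNFRSF18 (−6.12), FAHD1 (−5.65) and FSCB (−5.60). IZUMO1 and FAHD1 at 6 h, and IFNA6 and SLURP1 at 2 h, lay at the limit of the deposited scale, so that their sizes are bounds set by the table. None of these differences has a second feature to set beside it.

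The arrays of the later animals, which played no part in choosing the genes but share the vehicle sample with the other 2, show where these genes stood afterwards. The 867 higher genes, with medians of −0.998 (2 h) and 0.45 (6 h), had medians of 0.00 (1 day) and 0 (14 days). The 714 lower genes, with medians of 1.04 (2 h) and −0.38 (6 h), had medians of 0.14 (1 day) and 0.07 (14 days). Since the genes were chosen on the 2 h and 6 h arrays, these medians are a description. The 1 day value was nearer to the 6 h value than to the 2 h value in 64.7% of the higher and 55.7% of the lower genes, against 60.4% of all genes. In order of time, from 2 h to 14 days, IER2 stood at 0.41, 1.94, −0.52 and −0.19, MX1 at −0.95, 1.37, 0.14 and 0.18, and CEBPD at 0.49, 1.90, 0.34 and 0.72. IER2 and MX1 were named because they were higher at 6 h than at 2 h. CEBPD also passed 2-fold, but belongs to the set of known markers named whatever their value. The 6 h values of all 3 are no independent sign of a peak. KLF9, named for its difference like IER2 and MX1, stood at −1.95, −0.53, −0.47 and −0.96 in that order, with like values at 6 h and 1 day. RPS14 stood at −1.41, 0.71, −0.06 and −0.61 on the same arrays, and STMN2 at 0.87, −0.30, 0.12 and 0.14.

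**Figure D5:**
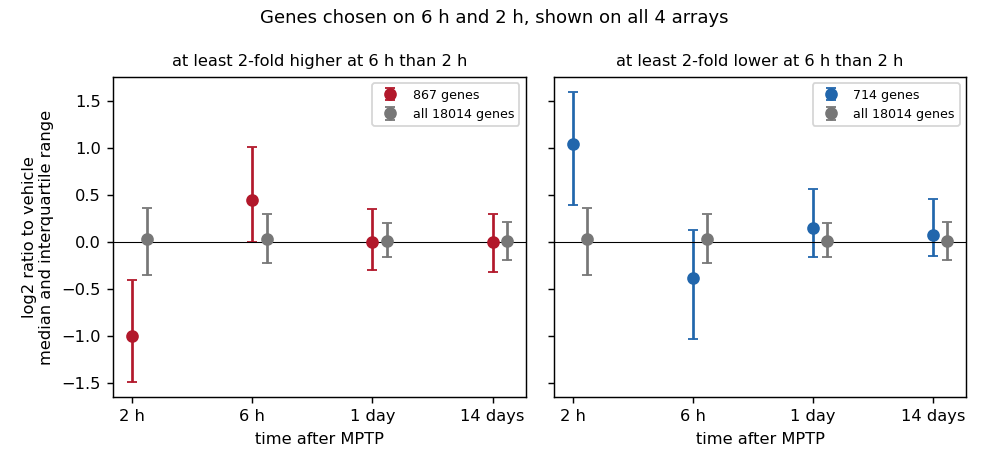
Points are medians and bars the interquartile range, as log2 ratios to vehicle on the 4 arrays in order of time (evenly spaced, not to scale). The left panel shows the 867 genes at least 2-fold higher and the right panel the 714 at least 2-fold lower at 6 h than at 2 h, with all 18014 genes in grey. Both sets lie far from vehicle at 2 h and near it at 1 day and 14 days; they were chosen by the 2 h and 6 h values, so distance on those 2 arrays follows from the choice.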

How the data were processed

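Expression was measured on human 2-colour oligonucleotide arrays in nigral RNA of 4 MPTP animals, each against the same vehicle animal. The values are log10 ratios as deposited by the authors, with each array reaching exactly 2 in size. How they were scanned, corrected and normalized is not stated in the sources used here, and signal over background is unknown. Here, values of the 6 h and 2 h arrays were multiplied by log2 of 10 and centred on the median of 43931 features. The 29033 features (66.1%) with exactly 1 symbol in the platform annotation were kept, and genes were summarised by the median of their features. Exact zeros made up 5.45% of features at 6 h and 4.70% at 2 h, and 1340 features were 0 on both arrays. Analyses ran in Python 3.11.15 with pandas 2.3.3 and numpy 2.4.6. The step from features to genes was tested on shuffled differences of these arrays with known shifts added, and the other steps were not tested in this way.

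The comparison, its lists and the alternatives were chosen with earlier results of these data known. Lists were corrected for duplicate symbols after the symbols had been looked up in the table. The 14 lists set out in full were picked from 47 after their medians had been seen, as was the tolerance used to compare settings. Genes were named by a rule: the 12 highest and 12 lowest with 2 or more features all past 2-fold, the 5 highest and 5 lowest of all, up to 6 members a list each way past 2-fold, genes past 2-fold on opposite sides of vehicle, and a set of known markers. Fewer genes are named than this allows. The genes nearest the 2-fold threshold and RPS4X are named outside the rule, and any others chosen otherwise are marked. No sequence is shown.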

Additional observations from a re-analysis of the deposited data

How the results depend on the processing

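Each count, list median and named gene was recomputed under every alternative that could be run. At 3-fold, 274 genes were higher and 263 lower, and with all of 2 or more features past 3-fold 6 and 1. Among genes with 2 or more features, 216 were higher and 145 lower (2.91% and 1.96% of those genes), and with all features past 2-fold 33 and 17 (0.445% and 0.229%), so the share fell as well as the number of genes. Features of a gene agreed poorly (r = 0.034). The other settings gave 696 to 881 higher and 595 to 752 lower, the lowest after subtraction of the median of neighbouring genes in 15312 genes. With scaled arrays the list medians were 0.0033 for immediate early genes, −0.097 for heat shock proteins and 0.14 for complex I. With members of 2 or more features they were −0.52 for erythrocyte markers, 0.39 for interferon stimulated genes and 0.36 for complex I, and after subtraction of the neighbours' median 0.18 for metallothioneins. The cause was not tested. In all, 350 of 376 list medians moved by less than the SD of the members divided by the square root of their number. Of the values of named genes, 859 of 901 moved by less than the SD between features. Genes with 1 feature have no such SD and were given the median SD of 0.40. With scaled arrays, 1 of the 1581 genes past 2-fold changed sign. The GC content alternative was not run. No paired analysis was possible because each time had 1 array, and no replicate could be left out. No spot intensities were given, so what dim features limit is unknown.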
